A study of Mus musculus with 3 samples.

Results

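The low-oxygen and glycolysis genes are 34 genes that cells are known to switch on when oxygen is short or that carry out glycolysis. They were taken as a written list of gene symbols, drawn up with earlier results of these data known, and all 34 are among the 19091 genes of the deposited tables. Each of the 34 had UMIs in all 3 libraries. The genes were read as unique molecular identifiers (UMIs), 1 per captured mRNA molecule, and a level is given as counts per 1000000 UMIs (CPM) of the same library or of the same set of barcodes.

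Cells of digested adult C57BL/6 mouse liver were profiled by Drop-seq, which encloses cells with barcoded beads in droplets. Irreversible electroporation (IRE) injures a confined area of a liver lobe by electric pulses, here 8 pulses of 50 ms with 1 s between them, at 75 V according to the labels, where the methods of the study name a lower voltage. The control library came from the same area of uninjured livers, labelled as sham surgery with tissue taken after 1 day, the second from the injured area 1 day after IRE (day 1) and the third from the injured area 7 days after it (day 7). No control was taken on day 7, so that injury and time since surgery cannot be told apart in the ratios of day 7 to control. Each library pooled a punch of 4 mm from 3 livers. There is thus 1 library per condition, the spread between animals is unknown, and no test across samples was possible. No age of the animals is given in the sources used here, no cells were sorted, and red blood cells were lysed. All intervals are 95% intervals that cover counting error alone, and a difference between libraries is a difference between these pools.

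A barcode was kept when it had 200 genes or more, which left 5624 to 10386 per library, with 3058967 to 8013800 UMIs in all and a median of 456.5 to 595 UMIs per barcode. The mitochondrial share of UMIs was 20.5% in control, 21.7% on day 1 and 4.10% on day 7. Barcodes were gated by markers of 5 cell classes, each barcode going to the class with the most distinct markers detected. The neutrophil gate held 6.55% of the barcodes in control, 1.10% on day 1 and 75.7% on day 7, and the macrophage gate 37.5%, 35.7% and 10.1%. The gates are not pure. Between 23.0% and 44.4% of the barcodes of a library carried at least 2 markers of 2 classes. Barcodes of the neutrophil gate on day 7 also held monocyte markers, at 11785 CPM against 2746 in control. Barcodes under 200 genes of that library held neutrophil markers at 102465 CPM, where the neutrophil gate held 56943. Whether these small barcodes are free RNA or small cells was not tested. Hepatocyte markers stood at 1730 CPM in control, 29553 on day 1 and 388 on day 7. The libraries shared 44 to 149 kept barcodes, at most 2.65% of the smaller library.

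In cells with enough oxygen, prolyl hydroxylases such as EGLN1 and EGLN3 mark the alpha subunits of hypoxia-inducible factors (HIFs) for destruction by way of the von Hippel-Lindau protein. When oxygen falls, the alpha subunits persist, pair with ARNT and bind a short core motif at target genes, which include the hydroxylases themselves, angiogenic signals, regulators of mitochondria and most enzymes of glycolysis. Glycolysis turns glucose into pyruvate and then lactate without oxygen. Neutrophils and inflammatory macrophages are known to rely on it, whereas hepatocytes also run the opposite route, gluconeogenesis.

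The bases upstream of the genes are shown first, searched for the core motif that HIFs bind. The members came from the written list and were not chosen by this motif. The core was searched as ACGTG and GCGTG on both strands in the 250 bases upstream of each start annotated by RefSeq (GRCm38.p6), and a palindrome that reads ACGTG on both strands was counted once per strand. The letters overlap those of the E-box, which other factors bind. Of the 34 members 32 were matched, Ero1l under its newer symbol Ero1a, and Bhlhe40 and Ndrg1 were not. At least 1 match lay upstream of 29 of the 32 genes, in 35 of their 46 windows or 76.1%. The same letters were found in 38.6% of all 32851 windows, and in 55.4% of the 9861 windows of genes with at least 50 UMIs in control and IRE 7 days together. Counted by gene, with a match in any window, the shares were 41.5% and 61.6%. The windows of Mif, Gpi1 and Tpi1 held no match. Among the matched members with at least 50 UMIs in control and day 7 together, which leaves out Mgarp, the upstream windows of the 3 with the highest ratio of day 7 to control and of the 2 with the lowest are shown. Capitals mark the matches, and where RefSeq lists several starts the one with the most matches is shown.
Egln3, chr12:54203875-54204124, minus strand: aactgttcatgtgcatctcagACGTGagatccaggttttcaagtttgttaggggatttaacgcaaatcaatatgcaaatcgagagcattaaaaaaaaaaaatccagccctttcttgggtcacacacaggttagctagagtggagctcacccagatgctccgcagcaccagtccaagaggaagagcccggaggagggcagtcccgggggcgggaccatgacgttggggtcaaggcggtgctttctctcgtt
Hilpda, chr6:29272376-29272625, plus strand: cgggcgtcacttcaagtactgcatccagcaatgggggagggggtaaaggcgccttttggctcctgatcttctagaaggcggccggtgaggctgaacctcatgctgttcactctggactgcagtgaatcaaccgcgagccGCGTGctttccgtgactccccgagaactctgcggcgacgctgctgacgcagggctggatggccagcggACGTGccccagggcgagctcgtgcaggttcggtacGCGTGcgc
Bnip3, chr7:138909507-138909756, minus strand: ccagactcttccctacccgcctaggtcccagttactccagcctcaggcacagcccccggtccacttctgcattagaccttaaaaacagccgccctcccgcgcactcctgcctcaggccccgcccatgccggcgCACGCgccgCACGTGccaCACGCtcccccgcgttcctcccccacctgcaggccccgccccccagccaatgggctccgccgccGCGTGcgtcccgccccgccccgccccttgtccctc
Adm, chr7:110627407-110627656, plus strand: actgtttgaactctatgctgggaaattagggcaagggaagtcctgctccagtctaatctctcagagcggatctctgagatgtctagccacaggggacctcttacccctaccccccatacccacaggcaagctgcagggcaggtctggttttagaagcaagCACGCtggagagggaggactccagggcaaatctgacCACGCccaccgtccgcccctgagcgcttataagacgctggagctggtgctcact
P4ha2, chr11:54100674-54100923, plus strand: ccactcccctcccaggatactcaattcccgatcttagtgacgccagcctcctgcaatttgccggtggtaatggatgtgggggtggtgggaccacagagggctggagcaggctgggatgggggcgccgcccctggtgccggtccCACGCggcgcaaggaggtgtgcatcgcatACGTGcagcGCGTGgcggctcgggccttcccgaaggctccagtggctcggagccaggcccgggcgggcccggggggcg
The Egln3 window held 1 match, Hilpda 3 and Bnip3 5, while Adm held 2 and P4ha2 held 3. The motif was found upstream of 24 of the 27 matched members that were at least 2-fold higher on day 7 and of all 4 tested members that were not. Of all genes with at least 50 UMIs in control and day 7 together, 61.6% had a match. A match is a match of letters and says nothing of binding.

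The first comparison asks how the 34 genes stood in the injured area at each time. Together they took 2357 CPM in control (interval 2323 to 2391), 2148 on day 1 (2112 to 2185) and 12480 on day 7 (12355 to 12606). A gene was compared where it had at least 50 UMIs in the 2 libraries together, and it was counted as higher or lower when its ratio reached 2-fold. On day 7, 29 of the 33 members compared were at least 2-fold higher than in control, against 8.79% of all 10227 genes compared, and 0 were at least 2-fold lower, against 21.8%. The median member was 4.44-fold higher, or 2.15 on the log2 scale, where the median of all genes compared was -0.215. Set against that shift of all genes, the count was again 29, and with mitochondrial UMIs left out of the totals it was 25. The 34th member, Mgarp, a mitochondrial protein known from low oxygen, had too few UMIs, with 1 in control, 1 on day 1 and 24 on day 7. On day 1, 2 of 33 members were at least 2-fold higher, against 12.2% of all genes, and 2 were at least 2-fold lower, against 5.86%, with a median log2 ratio of -0.17. From day 1 to day 7, 25 of 33 were at least 2-fold higher, against 11.6% of all genes, and 1 was lower, against 27.8%. In whole libraries more cells of a type and more RNA of a gene per cell cannot be told apart, and the share of barcodes in the neutrophil gate moved with these ratios.

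**Figure D1:**
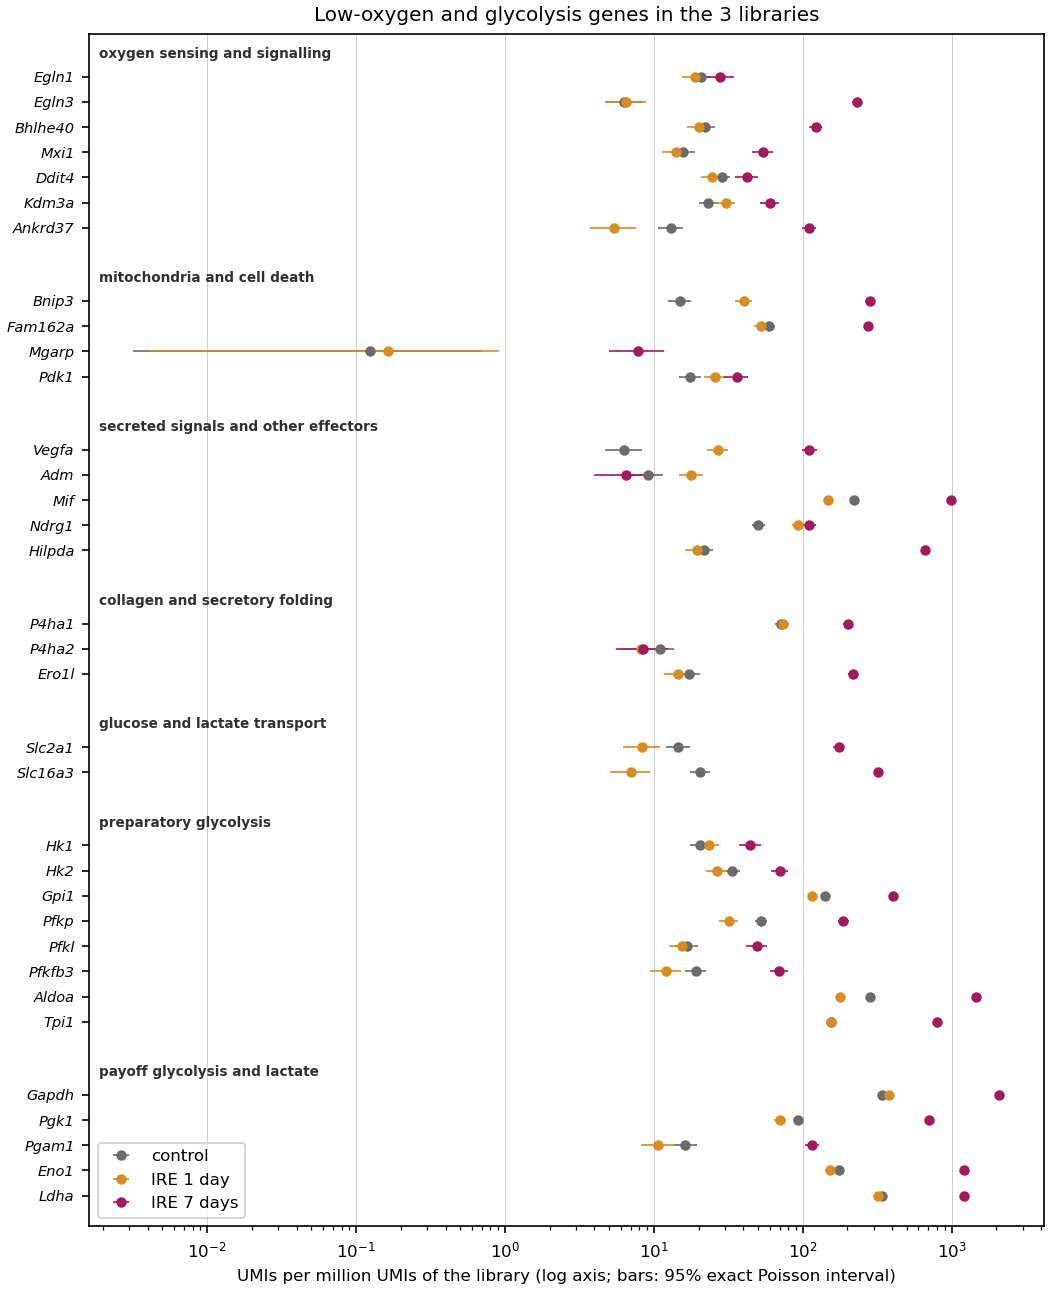
Levels of the 34 genes in the 3 libraries, in CPM on a log axis, grouped by role, with points for the libraries and bars for the 95% Poisson interval. The points of day 7 lie apart to the right for most genes, the points of control and day 1 lie close together, and Adm and P4ha2 show no such gap.

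The oxygen sensors and signalling genes were led by Egln3, the prolyl hydroxylase whose own gene is a HIF target. Its level was 6.36 CPM in control, 6.55 on day 1 and 231 on day 7, a ratio of 36.4 (27.4 to 49.3) to control. The first 2 libraries could not be told apart by counting, and the third stood far above both. Egln1, the main oxygen sensor among the hydroxylases, had 20.8, 18.8 and 27.8 CPM, with a ratio of 1.33 (1.01 to 1.74) on day 7. Ankrd37, a small ankyrin-repeat protein, was lower on day 1 and higher on day 7, with 13.0, 5.40 and 110.5 CPM. Its ratios to control were 0.416 (0.273 to 0.621) and 8.51 (6.82 to 10.7), so that the 2 times lay on opposite sides of control. Bhlhe40, a transcriptional repressor, went from 22.1 in control to 123 on day 7 and Mxi1, a partner of MAX that opposes MYC, from 15.8 to 53.9. Kdm3a, a histone demethylase, had a ratio of 2.61 on day 7, and Ddit4, an inhibitor of mTORC1 that also answers to other stresses, one of 1.47 (1.18 to 1.83). Of the 7 genes 5 were thus at least 2-fold higher on day 7, and Egln1 and Ddit4 stayed under 2-fold with intervals above 1. The interval of Egln1 was above 1 by little. The totals include mitochondrial UMIs, 20.5% in control and 4.10% on day 7, and their part in these 2 ratios was not tested.

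Among the genes that act on mitochondria, Bnip3, which directs mitochondria to autophagy, was higher at both times. Its level was 15.0 CPM in control, 40.3 on day 1 and 283 on day 7, with ratios of 2.69 (2.15 to 3.37) and 18.9 (15.6 to 23.1). The intervals of the 3 levels did not overlap, with control lowest and day 7 highest. Fam162a, a mitochondrial protein linked to cell death, stood at 59.5, 52.6 and 276 CPM. Pdk1, the kinase that shuts pyruvate dehydrogenase and so keeps pyruvate from the mitochondria, had 17.6, 25.7 and 36.0 CPM. Its ratio on day 7 was 2.04 with an interval of 1.58 to 2.64, so that the 2-fold limit lay inside the interval.

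The secreted signals did not move as 1 group. Vegfa, the main growth factor for blood vessels, was 6.36 CPM in control, 26.9 on day 1 and 111 on day 7. It was higher on day 1 and higher still on day 7. The ratios to control were 4.22 (3.06 to 5.90) and 17.5 (13.0 to 23.9). Adm, which encodes the vasodilator peptide adrenomedullin, took another course, with 9.11, 17.8 and 6.54 CPM. Its ratio to control was 1.96 (1.44 to 2.67) on day 1 and 0.718 (0.414 to 1.19) on day 7, and it was the member that was at least 2-fold lower on day 7 than on day 1, with a ratio of 0.366 (0.215 to 0.594). Hilpda, which inhibits lipolysis at lipid droplets, was 21.6 in control, 19.6 on day 1 and 663 on day 7, a ratio of 30.7 (26.3 to 36.1). Control and day 1 overlapped for Hilpda. Mif, a cytokine that is also made by resting cells, was lower on day 1 and higher on day 7, with 223, 148 and 991 CPM. Ndrg1, a stress-induced regulator of growth, had 50.4, 92.5 and 111 CPM. Its ratios to control were 1.83 (1.61 to 2.09) on day 1 and 2.20 (1.90 to 2.55) on day 7. In control it was higher in the endothelial gate than in the macrophage gate, as given below. The endothelial gate held 15.0%, 38.5% and 0.996% of the barcodes, and its part in these levels was not tested.

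The 2 prolyl 4-hydroxylase subunits that modify collagen differed from each other. P4ha1 had a ratio of 2.84 (2.53 to 3.18) on day 7, with 71.1 CPM in control, 73.7 on day 1 and 202 on day 7. P4ha2 had a ratio of 0.765 (0.474 to 1.20) on 89 UMIs in control and 26 on day 7. The 2 intervals did not overlap. Ero1l, the oxidase that supplies disulfide bonds to proteins folding in the endoplasmic reticulum, stood at 17.3, 14.6 and 218 CPM, a ratio of 12.6 (10.4 to 15.2).

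The transporters at both ends of glycolysis were lower on day 1 and much higher on day 7. Slc2a1, the glucose transporter GLUT1, had 14.6 CPM in control, 8.35 on day 1 and 176 on day 7. Slc16a3, the transporter MCT4 that carries lactate out of cells, had 20.6, 7.04 and 322. The ratios to control on day 1 were 0.572 (0.403 to 0.801) for Slc2a1 and 0.342 (0.239 to 0.481) for Slc16a3, the latter past the 2-fold limit. On day 7 they were 12.0 (9.85 to 14.8) and 15.6 (13.2 to 18.5). Slc16a3 therefore spanned a ratio of 45.7 (33.7 to 63.5) between the 2 injured libraries taken whole. Within the neutrophil gate the ratios of day 7 to control were 11.0 (5.72 to 24.1) for Slc2a1 and 4.98 (3.58 to 7.12) for Slc16a3.

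The preparatory phase of glycolysis, which spends ATP to split glucose, was higher on day 7 in all 8 of its members on the list. The first step was nearest the limit, with a ratio of 2.16 (1.71 to 2.73) for the hexokinase Hk1 and 2.07 (1.72 to 2.48) for the inducible hexokinase Hk2. Gpi1, the isomerase that follows, had a ratio of 2.85. The phosphofructokinase subunits Pfkl and Pfkp had ratios of 2.97 (2.34 to 3.78) and 3.58 (3.15 to 4.06), and Pfkfb3, which makes their activator fructose 2,6-bisphosphate, one of 3.62 (2.93 to 4.49). The 3 intervals overlapped. The aldolase Aldoa rose from 284 CPM in control and 179 on day 1 to 1460 on day 7, and the triosephosphate isomerase Tpi1 from 156 and 156 to 805.

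The payoff phase, which gains ATP, and lactate dehydrogenase were higher in all 5 members, with a median log2 ratio of 2.78 on day 7 against 1.71 for the preparatory phase. Gapdh, the dehydrogenase often taken as a constant reference gene, had 339 CPM in control, 378 on day 1 and 2077 on day 7, a ratio of 6.13 (5.86 to 6.42). Its intervals did not overlap between any 2 libraries. Pgk1, the first kinase of this phase, had 92.5, 70.4 and 705 CPM and a ratio of 7.63 (7.01 to 8.30). The mutase Pgam1 had a ratio of 7.04 (5.74 to 8.67) and the enolase Eno1 one of 6.87 (6.46 to 7.31). Ldha, the subunit that turns pyruvate into lactate, stood at 340.3, 323 and 1221 CPM, and its ratio of 3.59 (3.41 to 3.77) was the lowest of the 5. Several of these genes, among them Gapdh, Aldoa, Eno1, Pgk1, Ldha, Tpi1 and Mif, have near-identical pseudogene copies, and reads shared with such a copy may have been lost or split, so that their levels are uncertain.

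**Figure D2:**
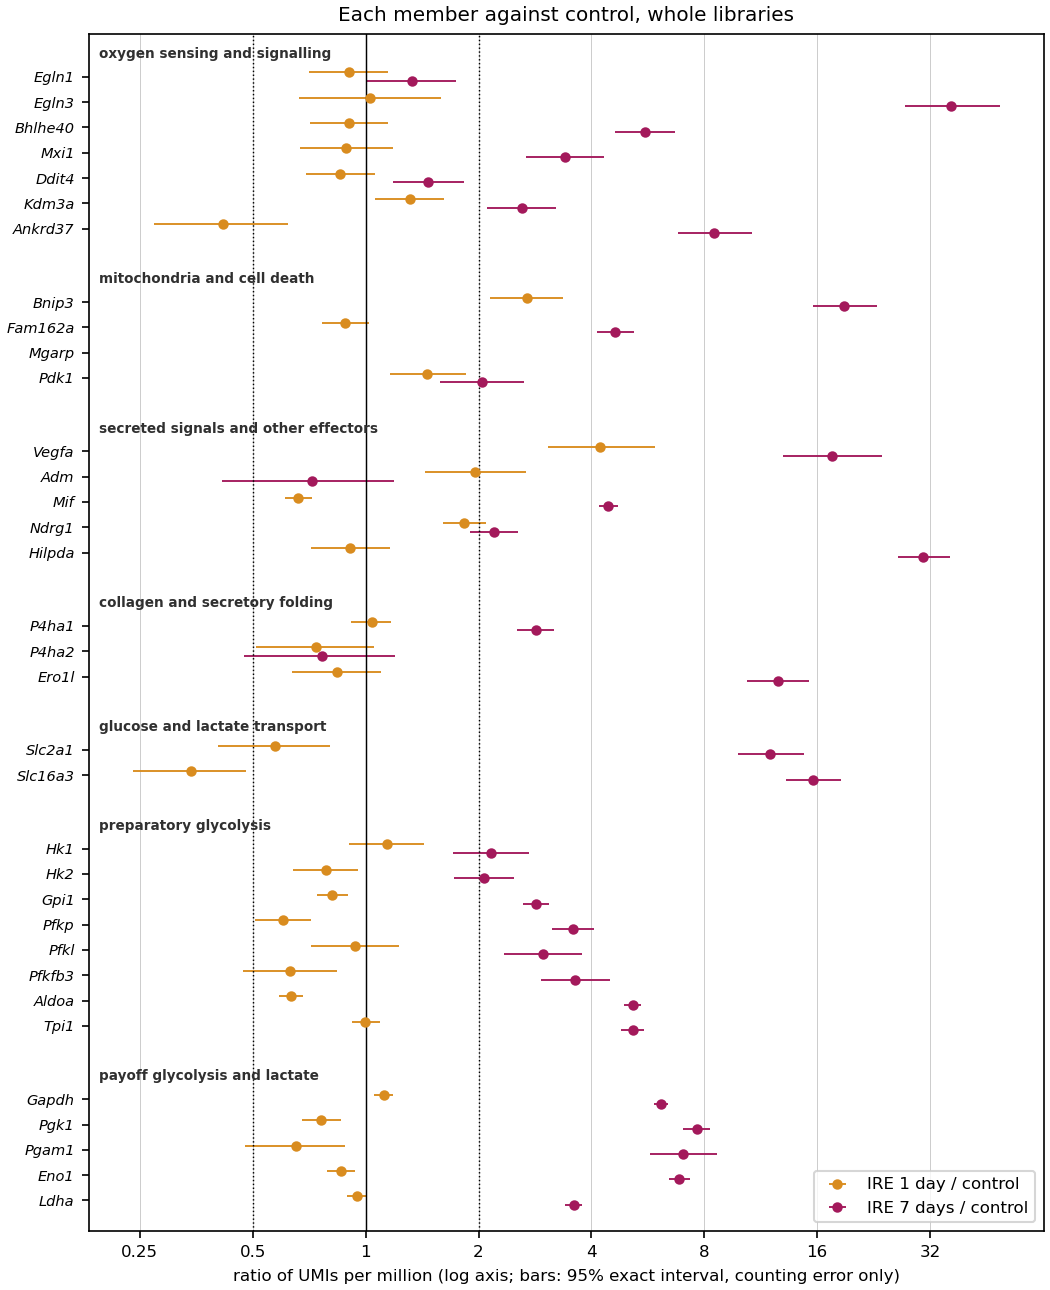
Ratio of each member to control on day 1 and on day 7 in whole libraries, on a log axis with bars for the 95% interval and dotted lines at 2-fold. The points of day 7 lie right of the upper dotted line for 29 of 33 members, and those of day 1 spread around 1, with Vegfa and Bnip3 above and Slc16a3 and Ankrd37 below the 2-fold lines.

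The low values on day 1 were then examined. Intervals lay below 1 for 12 of the 33 members, against 26.5% of all genes, and above 1 for 7, against 30.1%. The members below 1 included both transporters and 8 glycolytic enzymes or regulators, such as Aldoa with a ratio of 0.631 (0.587 to 0.679), Pfkp with 0.603 (0.506 to 0.717) and Pgk1 with 0.761 (0.675 to 0.859). The members above 1 were Vegfa, Bnip3, Adm, Ndrg1, Pdk1, Kdm3a and Gapdh. Hepatocyte markers were present in every gate and in ungated barcodes on day 1, at 10267 to 37546 CPM, and their part in these ratios was not tested. With mitochondrial, hemoglobin and hepatocyte marker UMIs taken out of the totals, 3 members were at least 2-fold higher.

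Within the macrophage gate 20 of the 29 members compared were at least 2-fold higher on day 7 than in control, against 7.67% of all genes, and 0 were lower, against 13.7%. The median member had a log2 ratio of 1.49. The highest ratio among these was that of Hilpda, with 32.0 CPM in control and 323 on day 7, a ratio of 10.1 (7.83 to 13.1). Bnip3 followed with 18.3 and 137, a ratio of 7.51 (5.17 to 10.9), then Slc16a3 with 5.68 (3.88 to 8.25) and Slc2a1 with 5.19 (3.37 to 7.89). All 5 enzymes from Gapdh to Ldha were at least 2-fold higher, from 2.81 for Ldha to 4.93 for Pgk1. Both hexokinases stayed below the limit, with 1.17 (0.731 to 1.79) for Hk2 and 1.75 (0.911 to 3.12) for Hk1, as did P4ha1 with 1.76 (1.33 to 2.30). Too few UMIs were read in the gate for Egln3, Vegfa, Adm, P4ha2 and Mgarp, although Egln3 had 26 UMIs in control and 17 on day 7, or 6.98 and 41.6 CPM. Neutrophil markers in the macrophage gate stood at 1571 CPM in control and 10680 on day 7, and monocyte markers at 1320 and 8586, so that the makeup of the gate differed between the libraries. The part of these markers in the ratios was not tested. In the 21 barcodes on day 7 and 960 in control that carried no marker of any other class, 9 members could be compared and 7 of them were at least 2-fold higher, against 20.4% of all genes.

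On day 1 the macrophage gate gave 3 members at least 2-fold higher of 32 compared, against 12.2% of all genes, and 3 at least 2-fold lower, against 5.07%. Vegfa had 6.18 CPM in control and 27.5 on day 1, a ratio of 4.45 (2.74 to 7.47). Ndrg1 had a ratio of 2.37 (1.82 to 3.11) and Bnip3 one of 2.16 (1.57 to 2.98). The lower genes were Slc16a3 with 0.308 (0.168 to 0.533), Ankrd37 with 0.344 (0.173 to 0.637) and Pfkfb3 with 0.388 (0.213 to 0.669). Hilpda, the gene with the largest ratio in this gate on day 7, was at 0.511 (0.349 to 0.734) on day 1. Endothelial markers in the gate stood at 591 CPM in control and 2686 on day 1, and hepatocyte markers at 2436 and 33296, and their part in these ratios was not tested. Barcodes that carried no marker of another class numbered 416 on day 1 and 960 in control. No member was at least 2-fold higher there, but 9 alone could be compared, and 4.93% of all genes were higher. Since most members had too few UMIs in these barcodes, the count does not show whether the 3 higher members kept their ratios.

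In the neutrophil gate 31 of 31 members compared were at least 2-fold higher on day 7 than in control, against 17.8% of all genes, with a median log2 ratio of 2.49. The gate held 680 barcodes in control and 4260 on day 7, so that many members reached 50 UMIs through the later library, where they were high. Of the 20 that met the minimum by their control level 20 were at least 2-fold higher, against 10.8% of all genes chosen in that way. Hilpda was 20.1 CPM in control on 10 UMIs, and 779 on day 7, a ratio of 38.8 (21.1 to 81.1). Egln3 was 10.0 and 279.9, a ratio of 27.9 (11.9 to 86.2), and Bnip3 24.1 and 320.3, a ratio of 13.3 (7.56 to 25.8). The intervals are wide because the control counts are small. The abundant enzymes were better determined, with 5.76 (4.98 to 6.70) for Gapdh and 9.54 (6.95 to 13.5) for Pgk1. The lowest ratios were those of Ddit4, 2.25 (1.21 to 4.63), and Gpi1, 2.55 (2.05 to 3.23). Adm, P4ha2 and Mgarp had too few UMIs. Mesenchymal markers in the gate stood at 4393 CPM in control and 17.3 on day 7, and their part in these ratios was not tested. The gate held 102 barcodes on day 1, where most members had under 10 UMIs.

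**Figure D3:**
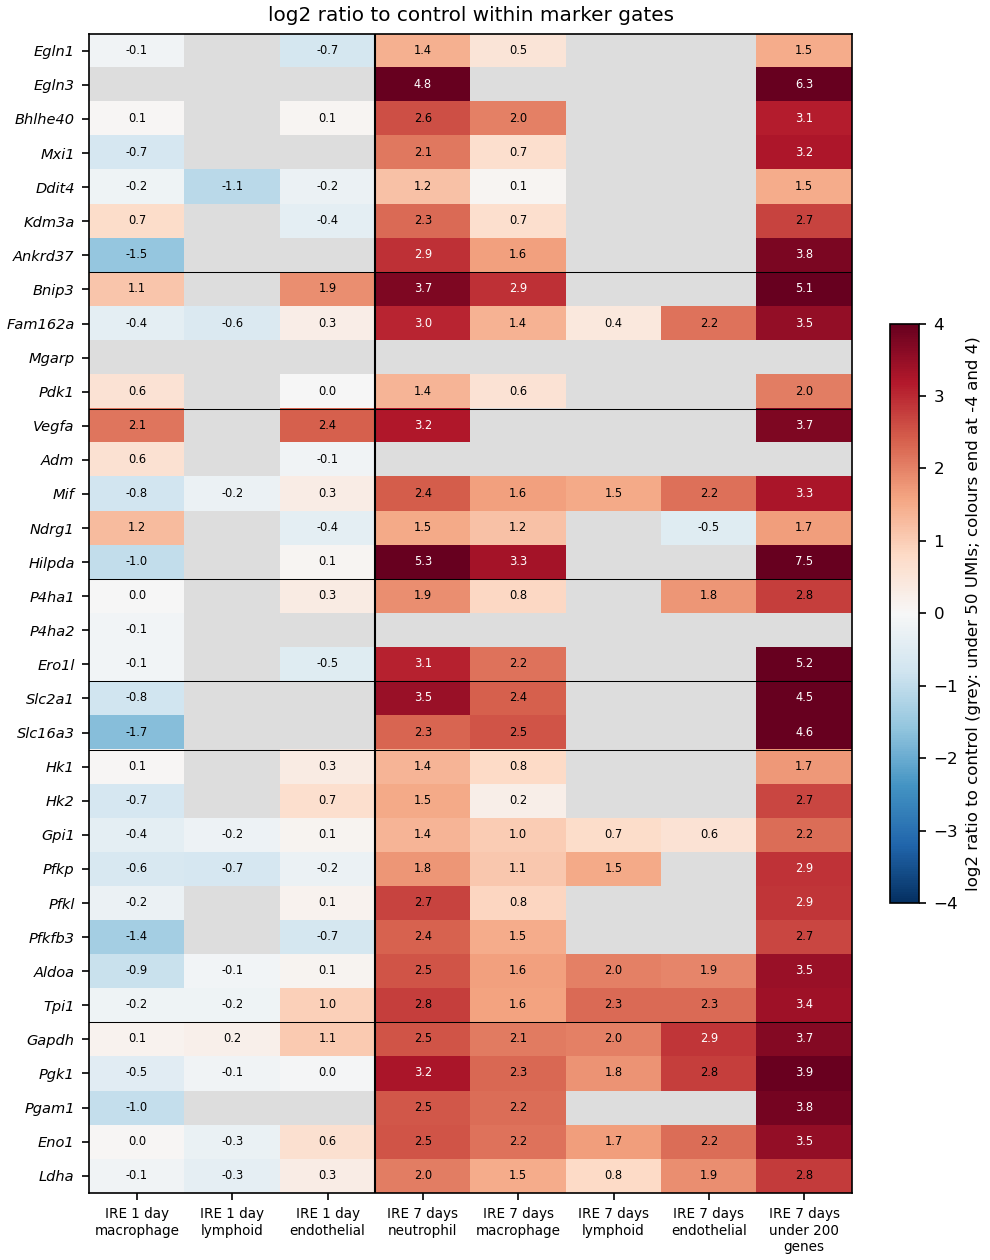
Log2 ratio to control of each member within marker gates on day 1 and day 7 and, in the last column, in barcodes under 200 genes on day 7, red for higher and blue for lower, grey where the 2 libraries held under 50 UMIs. Where members could be compared, the columns of day 7 are red almost throughout, with the darkest cells at Egln3, Bnip3 and Hilpda. In the lymphoid and endothelial columns of day 7 most members are grey, 24 and 23 of 34. Ndrg1 is pale blue in the endothelial column of day 7. The columns of day 1 are mostly pale or grey, with Vegfa and Bnip3 red and, in the macrophage gate, Slc16a3, Ankrd37 and Pfkfb3 blue.

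Of the smaller gates, the dendritic one held 7 barcodes and 2433 UMIs on day 7, against 231844 UMIs in control. It allowed 2 members to be compared, Gapdh with 3 UMIs on day 7 and Ldha with 0, against 60 and 87 in control. In CPM Gapdh was at least 2-fold higher, against 20.6% of all genes, and Ldha at least 2-fold lower, against 37.2%. These counts are too small to draw on. In the lymphoid gate 7 of 10 members compared were at least 2-fold higher, against 13.7% of all genes, from 2.82 (1.44 to 5.14) for Pfkp to 4.81 (3.08 to 7.30) for Tpi1. In the endothelial gate, with 56 barcodes on day 7, 9 of 11 were at least 2-fold higher, against 18.0%, with 7.24 (4.80 to 10.6) for Gapdh, while Ndrg1 had a ratio of 0.710 (0.191 to 1.85). In barcodes under 200 genes 31 of 31 were at least 2-fold higher, against 30.4%, many of which reached 50 UMIs through day 7 alone. Of the 19 that met the minimum by their control level 19 were at least 2-fold higher, against 23.6% of all genes chosen in that way. There Hilpda stood at 986 CPM and Egln3 at 385, above their levels in every gate of that library. From control to day 7 neutrophil markers went from 1254 to 10775 CPM in the lymphoid gate and from 1642 to 12931 CPM in the endothelial gate, and monocyte markers in the lymphoid gate from 1248 to 4943 CPM. Hilpda had 2 UMIs in the lymphoid gate on day 7, or 41.4 CPM, a count too small to draw on. The part of these markers and of free RNA in the ratios of the lymphoid and endothelial gates was not tested.

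The study centres on neutrophils, and the barcodes of the neutrophil gate were set against those of the macrophage gate within the library of day 7. Of 31 members compared 12 were at least 2-fold higher in the neutrophil gate, against 9.01% of all genes, and 0 were lower, against 6.42%, with a median log2 ratio of 0.70. The largest ratio was that of Egln3, 6.72 (4.17 to 11.6), followed by Ero1l with 3.70 (2.53 to 5.61), Vegfa with 3.51 (2.09 to 6.35) and Slc16a3 with 3.15 (2.35 to 4.30). The glycolytic enzymes differed less. Eno1 had a ratio of 1.57 (1.40 to 1.76), Gapdh 1.30 (1.20 to 1.41) and Ldha 1.20 (1.08 to 1.33), and of the 13 enzymes only Pfkp, with 2.25, passed 2-fold. Egln1 did not differ beyond counting, with 1.00 (0.523 to 2.11).

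Because many barcodes of the neutrophil gate carried monocyte markers, barcodes with at least 2 neutrophil markers other than S100a8 and S100a9 and no monocyte marker were set against barcodes with at least 2 monocyte markers and none of those neutrophil markers. This division was chosen after the mixture had been seen. On day 7 it held 657 and 477 barcodes, and another 1999 carried both kinds. Of 22 members compared 1 was at least 2-fold higher in the barcodes with neutrophil markers, against 10.2% of all genes, and 0 were lower, against 11.0%. That member was Egln3, with 316 CPM against 150.4, a ratio of 2.10 (1.40 to 3.23). Ero1l, Slc16a3 and Hilpda also had intervals above 1, with ratios of 1.69, 1.60 and 1.60. Intervals lay below 1 for 6 members, all of them abundant glycolytic genes or Mif, with Eno1 the lowest at 0.636 (0.538 to 0.751). The summed level of the 34 genes was 11778 CPM (11393 to 12173) in the first kind and 12871 (12401 to 13355) in the second. Both kinds stood above control, where the same barcodes had 2139 (1946 to 2346) and 2647 (2544 to 2752). Against control 18 of 18 members compared were at least 2-fold higher in barcodes with neutrophil markers, where all genes gave 24.4%, and 16 of 16 in barcodes with monocyte markers, where all genes gave 12.3%. Many of these reached 50 UMIs through day 7 alone, and the other 16 and 18 members had too few UMIs. By the control level 7 and 12 members met the minimum, all at least 2-fold higher, against 12.2% and 9.77% of all genes chosen in that way.

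**Figure D4:**
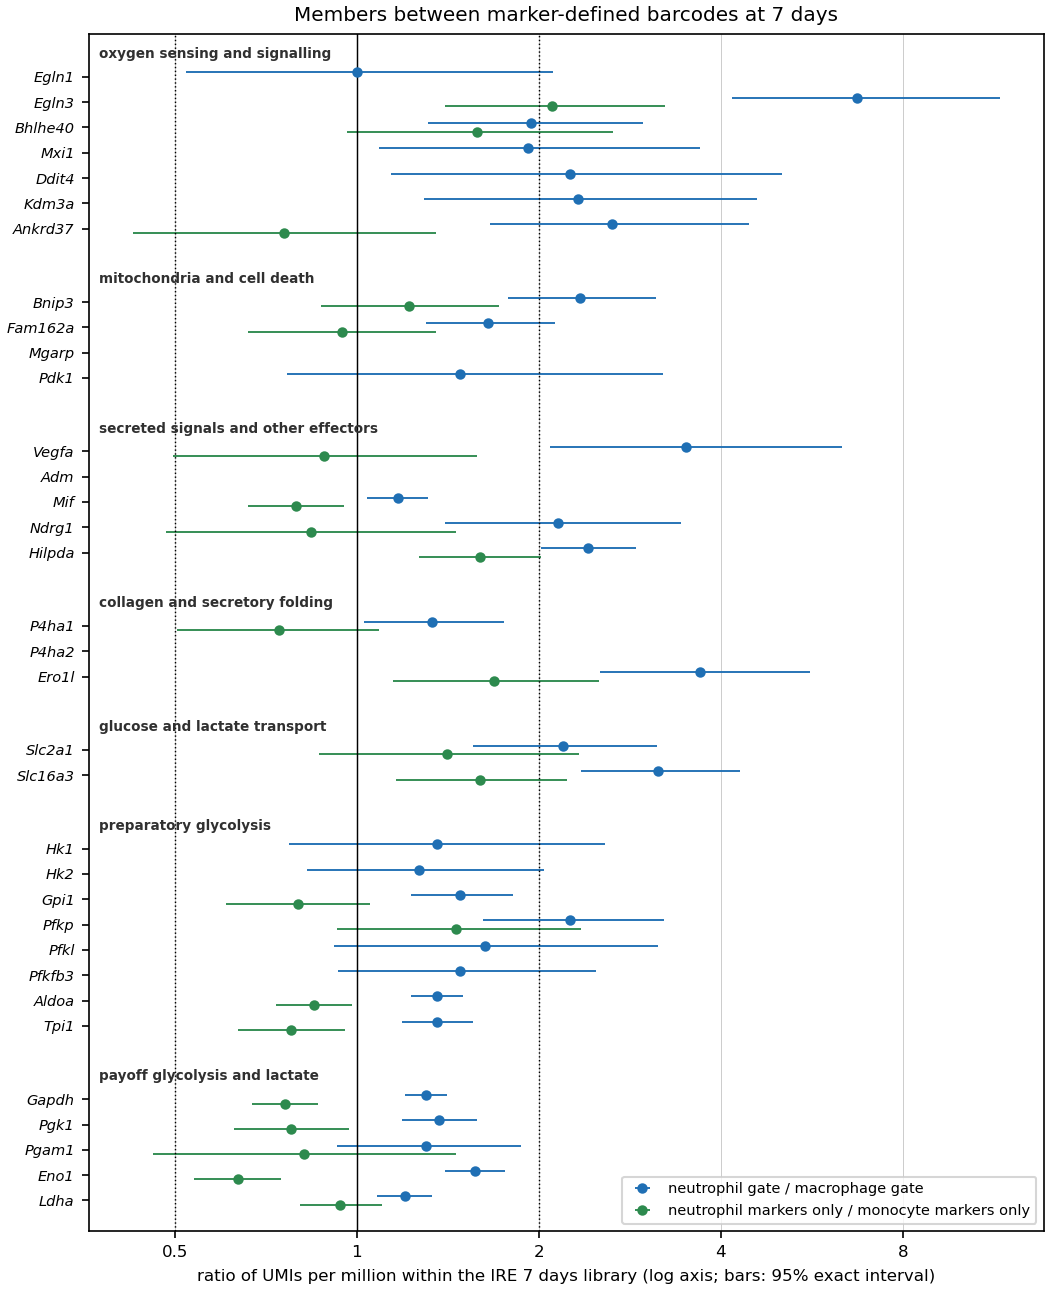
Ratio of each member within the library of day 7, between the neutrophil and macrophage gates and between barcodes with neutrophil markers alone and with monocyte markers alone, on a log axis with bars for the 95% interval. Egln3 lies farthest right in both comparisons, and the glycolytic enzymes lie near 1, on its right in the first comparison and mostly on its left in the second.

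The spread over barcodes was examined after each barcode had been thinned to 300 UMIs at random, which left out 209 barcodes in control, 298 on day 1 and 545 on day 7. The mean number of UMIs of the 34 genes among 300 was 0.655 in control, 0.594 on day 1 and 3.85 on day 7. The share of barcodes without a single one was 55.0%, 56.9% and 7.91%, and before thinning 32.7%, 36.7% and 3.65%. At least 5 were found in 0.413% of the barcodes in control, 0.212% on day 1 and 32.9% on day 7. Barcodes under 200 genes of that library, which may be free RNA or small cells, held the 34 genes at 13127 CPM, as high as the kept barcodes. These shares therefore do not tell the RNA of a cell from free RNA. By gate, the mean on day 7 was 4.09 in the neutrophil, 2.62 in the macrophage, 2.21 in the lymphoid and 1.57 in the endothelial gate, where control had 0.651, 0.742, 0.664 and 0.471. The spread between barcodes was wider than counting alone would give, with a variance of 2.39 times the mean on day 7 and 1.26 times in control.

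**Figure D5:**
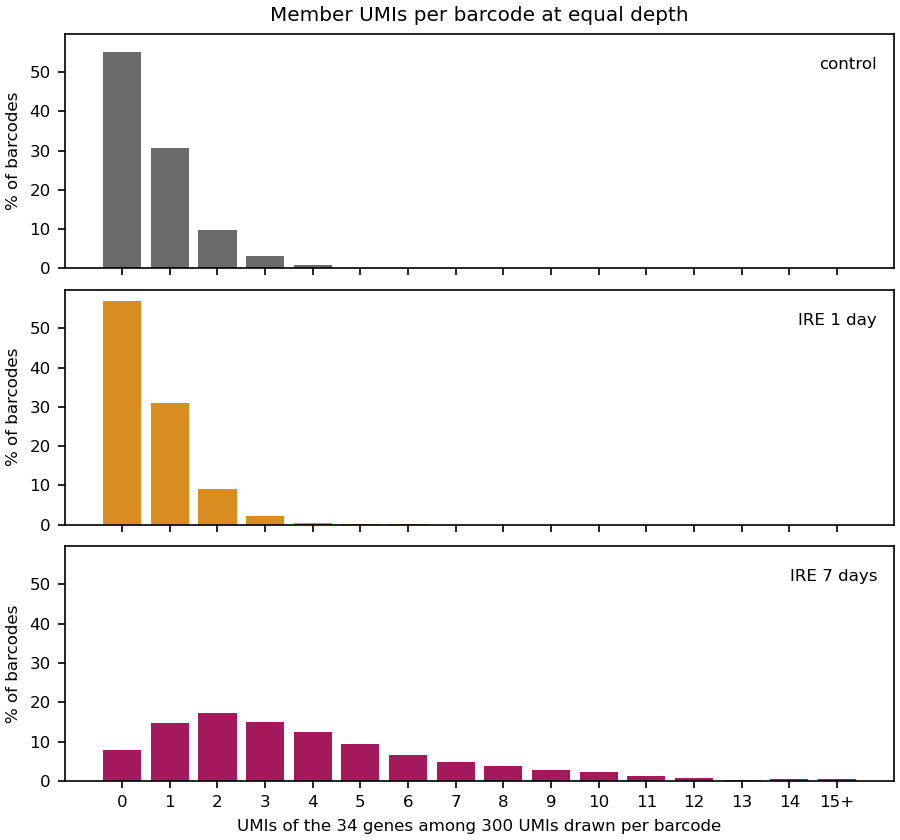
Share of barcodes by the number of UMIs of the 34 genes among 300 UMIs drawn per barcode, in 1 panel per library with bars in percent of barcodes. Control and day 1 have their highest bar at 0 with 55.0% and 56.9%, and day 7 has 7.91% at 0 and a long tail.

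The endothelial gate was set against the macrophage gate in control and on day 1. In control 3 of 31 members compared were at least 2-fold higher in the endothelial gate, against 12.2% of all genes, and 11 were at least 2-fold lower, against 14.8%. The 3 were Ndrg1, at 180.3 CPM against 25.0, a ratio of 7.22 (5.59 to 9.36), then Adm with 3.65 (2.16 to 6.15) and Kdm3a with 2.43 (1.64 to 3.58). The lower ones were mostly glycolytic, such as Hk2 with 0.254 (0.133 to 0.444), Tpi1 with 0.364 (0.283 to 0.462) and Gapdh with 0.372 (0.313 to 0.441). On day 1 the difference between the gates was not seen in this form. There 2 of 26 members were at least 2-fold higher in the endothelial gate, against 6.75% of all genes, and 0 were lower, against 4.47%. From control to day 1, 3 of 26 members compared in the endothelial gate were at least 2-fold higher, against 10.0%, and 0 were lower, against 2.33%. These were Vegfa with 5.23 (2.12 to 16.7), Bnip3 with 3.63 (1.99 to 7.28) and Gapdh with 2.09 (1.74 to 2.51), the first on 5 UMIs in control and 57 on day 1. Hepatocyte markers in the gate went from 767 to 23629 CPM and macrophage markers from 1253 to 2773 CPM, and their part in these ratios was not tested. Vegfa and Bnip3 were also among the 3 higher members of the macrophage gate, but in both gates the count lay near the share of all genes. Where the control level alone had to meet the minimum, 1 of 24 members was at least 2-fold higher in the endothelial gate. Of all genes chosen in that way 2.99% were so. Without barcodes that occur in more than 1 library, 1 of 24 members was at least 2-fold higher in the endothelial gate.

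Other genes of the same pathways were taken from lists written with earlier results of these data known. Their counts on day 7 are to be read against the 8.79% of all genes that were at least 2-fold higher and the 21.8% that were lower. Of the HIF regulators, 7 of 8 could be compared in whole libraries on day 7, with 1 higher and 1 lower, which is near those shares. The higher gene was Hif1a, the alpha subunit found in most cells, at 67.1 CPM in control, 39.9 on day 1 and 252 on day 7, a ratio of 3.76 (3.36 to 4.20). The lower gene was Epas1, which encodes the alpha subunit HIF-2 alpha and is known from endothelium, at 44.8, 113 and 5.23 CPM. Its ratios were 2.53 (2.22 to 2.88) on day 1 and 0.117 (0.0660 to 0.192) on day 7. The endothelial gate held 15.0% of the barcodes in control, 38.5% on day 1 and 0.996% on day 7. Within the macrophage gate Hif1a had a ratio of 2.19 (1.62 to 2.92) on day 7 and 0.597 (0.468 to 0.756) on day 1. Cited2, a competitor of the HIFs for their coactivator, had a ratio of 1.17 (0.955 to 1.42) on day 7 in whole libraries.

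Of 24 other genes known as HIF targets 18 could be compared on day 7, with 9 at least 2-fold higher, against 8.79% of all genes, and 6 at least 2-fold lower, against 21.8%. Arg1, an arginase and also among the monocyte markers used here, had 131, 368 and 5593 CPM, a ratio of 42.8 (40.2 to 45.6) on day 7. Hepatocyte markers stood at 1730, 29553 and 388 CPM in the same libraries, and their part in the Arg1 level was not tested. Plin2, a coat protein of lipid droplets, had a ratio of 4.35 (4.14 to 4.58), Hmox1, which degrades heme, 6.07 (5.53 to 6.68), and Nos2, the inducible nitric oxide synthase, had 2 UMIs in control and 83 on day 7. The 6 lower genes were Lox, Loxl2 and Plod2, which modify collagen, Edn1, Angptl4 and Rora, with ratios from 0.0187 (4.70e-04 to 0.106) for Lox to 0.412 (0.281 to 0.587) for Rora. Mesenchymal markers stood at 2336 CPM in control and 15.7 on day 7, and their part in these ratios was not tested.

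Among 14 further glycolysis genes compared on day 7, 3 were at least 2-fold higher and 3 lower, against 8.79% and 21.8% of all genes. Pkm, the pyruvate kinase of non-hepatic tissue, went from 344 CPM in control and 164 on day 1 to 1790 on day 7, a ratio of 5.21 (4.97 to 5.45). Slc2a3, the high-affinity glucose transporter GLUT3, had a ratio of 8.54 (6.71 to 11.0) and Pgm2 one of 3.93 (3.15 to 4.91). Among the lower genes were Ldhb, the lactate dehydrogenase subunit of oxidative tissue, with 0.197 (0.110 to 0.327) and Pfkfb2 with 0.456 (0.225 to 0.848).

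The pentose phosphate pathway, which branches from glycolysis and supplies NADPH, had 2 of 7 genes at least 2-fold higher on day 7 and 0 lower, against 8.79% and 21.8% of all genes. These were G6pdx, its entry enzyme, with 2.09 (1.74 to 2.51) and Pgd with 2.89 (2.62 to 3.18), while Taldo1 had 1.69 (1.59 to 1.80). In the tricarboxylic acid cycle and pyruvate dehydrogenase, the route that burns pyruvate, 0 of 20 genes were at least 2-fold higher or lower on day 7, against 8.79% and 21.8% of all genes, with a median log2 ratio of -0.05 where that of all genes was -0.215. Mdh2 had a ratio of 1.32 (1.19 to 1.46), Sdhb 1.28 (1.15 to 1.41) and Suclg1 0.777 (0.651 to 0.924). The genes of gluconeogenesis took another course, with 5 of 6 at least 2-fold higher on day 1, against 12.2% of all genes, and 3 of 4 lower on day 7, against 21.8%. Pck1, its rate-limiting enzyme, had 30.3, 467 and 1.96 CPM and Fbp1 23.1, 272 and 2.62. The hepatocyte markers given above moved with them across the 3 libraries.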

How the data were processed

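Digested liver of adult mice, 3 animals pooled per condition, was read by Drop-seq in 3 libraries, control, IRE 1 day and IRE 7 days. The values are UMI counts per gene and barcode as the authors deposited them, raw and not normalized. Reads were aligned with STAR 2.5.2a, per the submitters' processing notes, which name hg19 as build although the libraries are mouse, and no coordinate of the files was used. Per the file headers, UMIs were collapsed at an edit distance of 1 and reads needed a mapping quality of at least 10. The headers give a minimum of 200 genes, but the deposited tables also hold smaller barcodes, which were left out here and took 20.1% to 33.2% of the UMIs.

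Kept barcodes were pooled per library or gate, and levels were given per 1000000 UMIs with exact Poisson intervals, ratios with exact binomial intervals (95%, counting error alone). UMIs are single molecules, but the intervals cover neither animals nor preparation. A ratio was counted past 2-fold with at least 50 UMIs in both sets together. With 1 library per condition no test across samples could be made. A gate needed at least 2 distinct markers of a class and more than of any other class, and doublets were not removed. The interval was run on simulated counts drawn from the same counting model, which leaves out the wider spread between barcodes seen in the data. Calculations used Python 3.11.15, NumPy 2.4.6, SciPy 1.17.1 and pandas 2.3.3, and promoter windows came from RefSeq (GRCm38.p6).

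The members, the pathway lists and the gates were chosen with earlier results of these data known. All 34 members were described, and of the pathway lists the 3 genes with the most UMIs and genes past 2-fold could be named. Alternatives changed the gene minimum, the UMI minimum, the totals, the gates and the weighting, and 5 of them, like the division into neutrophil and monocyte markers, were chosen after seeing the data. The values of 1 gene of the pathway lists are not reported here.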

Additional observations from a re-analysis of the deposited data

Results flagged for a closer look

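On day 1 the ratio to control of Ndrg1 was 2.37 (1.82 to 3.11) in the macrophage gate and 0.766 (0.636 to 0.924) in the endothelial gate, so that the intervals lay on opposite sides of 1. Ldha showed the reverse, with 1.24 (1.07 to 1.44) in the endothelial gate and 0.903 (0.828 to 0.984) in the macrophage gate. The difference between the gates was not tested in either gene, since there is 1 library per condition. Endothelial markers in the macrophage gate stood at 591 CPM in control and 2686 on day 1, and their part in the Ndrg1 ratio was not tested.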

How the results depend on the processing

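Each condition has 1 library, so no replicate could be left out. No paired analysis was possible because no condition has more than 1 library. The count of members at least 2-fold higher on day 7 than in control ranged from 24 to 30 over 12 alternatives, with 24 under equal weight of 4 gates, and from 24 to 28 against day 1. The summed level on day 7 stayed above control in every alternative that was run. In control it was 2133 with at least 100 genes, 2836 with at least 500, 2127 with every barcode, 2963 without mitochondrial UMIs, 2970 also without hemoglobin and hepatocyte markers, 2017 without Ldha, 2158 as a mean over barcodes and 2256 under equal weight of 4 gates. In the same order, with Gapdh left out in place of Ldha, it was 1966, 2531, 1967, 2745, 2854, 1771, 1996 and 2423 on day 1, and 12703, 10966, 12695, 13014, 13020, 10404, 12711 and 8739 on day 7. Without barcodes that occur in more than 1 library it was 2053 on day 1. On day 1, 5 members were at least 2-fold higher than control under equal weight of 4 gates, where 2 were so in whole libraries. In the macrophage gate on day 1 the count of 3 became 1 when the lower end of the interval had to reach 2-fold. It became 0 of 9 without markers of other classes, where most members had too few UMIs to be compared. On day 7 the count of 20 in that gate became 7 of 9 without such markers. In the neutrophil gate the count of 31 became 20 of 22 with at least 500 genes, 18 of 18 without monocyte markers and 20 of 20 where the control level alone had to meet the UMI minimum, with fewer members compared. In the endothelial gate on day 1 the count of 3 became 1 by the lower end of the interval and 1 of 24 both without barcodes that occur in more than 1 library and with the minimum met by the control level. The cause of the other changes was not tested. Few UMIs per barcode limit the rare members in the small gates.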
